A study of Mus musculus with 6 samples.

Results

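The liver makes most of the proteins that circulate in plasma, and 10 genes for such proteins and for secreted liver factors (hepatokines) were followed in primary mouse hepatocytes that were made to express nuclear CREBH. The genes were Rbp4, Ahsg, Fetub, Hrg, Ambp, Afp, Agt, Lect2, Gc and Tsku. They were found as features of the array whose annotation carried exactly 1 gene symbol, that of the gene, out of 18820 genes with such a feature. A feature was found for 8 of the 10 genes, each with a single one, and these were 10467319 for Rbp4, 10434689 for Ahsg, 10434698 for Fetub, 10434709 for Hrg, 10513630 for Ambp, 10523078 for Afp, 10582658 for Agt and 10409592 for Lect2. Gc and Tsku were not analysed here.

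Hepatocytes came from perfused livers of male wildtype C57BL/6J mice aged 8 to 10 weeks and were cultured in 60 mm dishes. Both groups received an adenovirus at 100 viral particles per cell and were collected after 24 h. The control virus carried green fluorescent protein (Ad-GFP, 3 dishes), and the other carried the nuclear form of mouse CREBH behind the CMV promoter of its vector (Ad-nuclear CREBH, 3 dishes). CREBH is a transcription factor of the liver that is made as a protein of the endoplasmic reticulum membrane and released by cleavage, so the nuclear form bypasses that step. RNA of each dish was read on its own Affymetrix Mouse Gene 1.1 ST array, as log2 expression values made with RMA. No source says that the dishes came from separate animals, so p-values reflect no more than how dishes varied, and 3 arrays per group limit the precision. Creb3l3, which encodes CREBH, had log2 values of 8.49, 8.02 and 8.21 with Ad-GFP and of 9.97, 10.46 and 10.59 with Ad-nuclear CREBH (log2 fold change 2.10, SE 0.19, adjusted p = 9e-05), and the viral transcript cannot be told apart from that of the mouse gene.

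The array numbered 1 stood apart in both groups. Over all genes it correlated with its own group at a mean of 0.986 with Ad-GFP, where the others had 0.991, and at 0.991 with Ad-nuclear CREBH, where the others had 0.994. For the genes of the set, values without both arrays numbered 1 are given where they changed a call or a direction. That fit was added after the data were seen and leaves 2 arrays per group. With these fewer arrays 4377 genes rose and 4765 fell at an adjusted p under 0.05, against 3615 and 3427 on all arrays. Its adjusted p-values are thus no independent support for a change. The cultures carried hepatocyte messages, with Alb at 13.28 and 13.27 and Ttr at 11.91 and 11.94 as group means of log2 values. Of 8 hepatocyte markers 1 rose (Apoa1), 3 fell (Asgr1, Cps1 and Tat) and 4 did not pass, with a mean over the list of 10.25 to 10.52 on the Ad-GFP arrays and 9.69 to 10.14 on the Ad-nuclear CREBH arrays. Of 8 macrophage markers 1 rose (Csf1r, 4.70 to 5.31, adjusted p = 0.0254) and 3 fell, and the list mean was 5.47 to 5.76 and 5.27 to 5.58. Among those that fell, Cd68 was at 11.49 and 10.35 (log2 fold change -1.13, SE 0.31, adjusted p = 0.0215). It lay far above the other macrophage markers, whose group means were between 3.13 and 6.28. Adgre1, Clec4f and Vsig4 did not pass. The macrophage calls were each lost when single arrays were left out (Cd68 -0.91, adjusted p = 0.0764, without Ad-nuclear CREBH replicate 3). Of 6 measured cholangiocyte markers 1 rose (Epcam) and 2 fell, among them Cldn4 from 9.05 to 4.94. None of 8 stellate cell and fibroblast, 8 endothelial and 7 measured lymphocyte markers passed in the main fit on all 6 arrays. Without both arrays numbered 1 the fibroblast markers Col1a1 (2.57, adjusted p = 6.4e-07, against 1.63 on all arrays), Col1a2 (1.51, adjusted p = 3.42e-05, against 1.02) and Des (0.65, adjusted p = 0.00711, against 0.44) rose, whereas Acta2 (-0.50, adjusted p = 0.0152) and the endothelial marker Lyve1 (-0.59, adjusted p = 0.00491) fell. The cholangiocyte marker Sox9 then rose too (1.27, adjusted p = 7.02e-06, against 0.58), and the macrophage marker Marco fell (-0.42, adjusted p = 0.0472, against -0.39). The other stellate cell and fibroblast markers, Col3a1, Pdgfrb, Dcn and Lrat, did not pass in either fit (0.02, 0.11, 0.09 and 0.16 on all arrays). Col1a1, Col1a2, Des, Acta2, Lyve1 and Sox9 also passed with array weights (adjusted p up to 0.0457, for Acta2), whereas Marco did not. For the stellate cell list the mean was 4.03 to 4.12 with Ad-GFP and 4.03 to 4.72 with Ad-nuclear CREBH, and the lymphocyte markers averaged 3.03 to 3.14 over the list on the 6 arrays. The part of other cells in the results was not tested. In such bulk RNA fewer cells of a type and less RNA per cell cannot be told apart.

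Plasma proteins of the liver carry vitamins, lipids, metals and hormones, inhibit proteases, or are precursors of signals. RBP4 carries retinol (vitamin A) from liver stores, bound to transthyretin. AHSG (fetuin-A), FETUB (fetuin-B) and HRG belong to the cystatin superfamily, AMBP and RBP4 to the lipocalins, and AFP to the albumin family. AGT is the substrate of renin and the source of angiotensins, and LECT2 is a hepatokine that acts on receptors of other cells.

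Since 5 of these genes fell, the promoter sequences of those genes are shown, as RefSeq's annotation of mouse build GRCm38.p6 places their starts. Each runs 5′ to 3′ on the strand of the gene, over the 170 bases before the first annotated start, and capitals mark the motifs named below. Fetub and Rbp4 have a second annotated start, from which short stretches of 30 bases are shown around a motif, with that motif alone in capitals.
Rbp4 (chr19:38125322-38125491, minus strand): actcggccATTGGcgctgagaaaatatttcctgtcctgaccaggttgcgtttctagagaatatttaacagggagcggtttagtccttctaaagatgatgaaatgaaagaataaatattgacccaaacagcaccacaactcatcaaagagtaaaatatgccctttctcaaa
Ahsg (chr16:22891845-22892014, plus strand): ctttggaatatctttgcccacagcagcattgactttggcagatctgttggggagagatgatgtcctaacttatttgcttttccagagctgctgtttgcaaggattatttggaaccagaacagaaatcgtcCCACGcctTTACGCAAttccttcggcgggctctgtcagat
Afp (chr5:90490544-90490713, plus strand): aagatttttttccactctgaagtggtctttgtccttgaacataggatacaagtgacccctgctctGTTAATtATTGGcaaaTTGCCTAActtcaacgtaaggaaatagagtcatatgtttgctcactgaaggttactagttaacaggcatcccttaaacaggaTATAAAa
Ambp (chr4:63154173-63154342, minus strand): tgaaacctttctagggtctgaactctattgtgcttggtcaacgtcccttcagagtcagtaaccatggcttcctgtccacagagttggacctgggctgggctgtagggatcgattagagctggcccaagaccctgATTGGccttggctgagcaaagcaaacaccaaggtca
Fetub (chr16:22918212-22918381, plus strand): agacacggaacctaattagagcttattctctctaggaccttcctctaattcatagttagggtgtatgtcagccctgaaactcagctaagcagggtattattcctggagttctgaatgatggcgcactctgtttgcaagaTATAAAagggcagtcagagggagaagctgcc
Fetub, second start (chr16:22920104-22920133, plus strand): gctttcttgctgCGTCAtgcgtgggcggga
Rbp4, second start (chr19:38124966-38124995, minus strand): ggacggcaaggcTGACGgaggggccccgcg
Rbp4, second start (chr19:38124822-38124851, minus strand): tccccccggagcTATAAAggaccgacggcc

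All 8 measured genes had a promoter in the RefSeq table, in 10 windows. Both strands of the 250 bases before each start were searched for 7 motifs, and the shares are over all 32851 promoter windows of the table. TGACG, the core of the cAMP response element that factors of the CREB family bind, lay in 2 of the 8 genes, in each case at the second start (first base at -106 in Fetub and -172 in Rbp4), and 17.8% of all windows held it. The whole palindrome TGACGTCA, which contains TGACG on both strands, lay in 0 of the 8 and in 1.55% of all windows. CCACG, a part of the ER stress element, lay in 3 genes (28.3% of all windows), and CCAAT in 5 (33.8%). TATAAA lay in 4 genes (12.4% of all windows), at -7 in Afp, -30 in Agt, -31 in Fetub and -28 at the second start of Rbp4. GTTAAT, a part of an HNF1 site, lay in Afp and Lect2, 2 genes (6.43% of all windows), and TTGCNNAA, which C/EBP factors can bind, in 4 genes, Afp, Ahsg, Hrg and Rbp4 (9.56%). A gene with 2 starts has more sequence in which a motif can lie, and a match of letters is a description, not a binding site.

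Of the 8 measured genes 5 fell, 0 rose and 3 did not pass. The threshold was an adjusted p under 0.05 in limma, with Benjamini-Hochberg adjustment over all 18820 genes, of which 18.2% fell and 19.2% rose. No gene of the 8 rose at an unadjusted p under 0.05 or with the intensity-based moderated statistic either. In 5 genes every Ad-nuclear CREBH array lay below every Ad-GFP array, as in 23.1% of all genes, and in 3 genes the groups overlapped. The median log2 fold change of the 8 genes was -0.55, and that of all genes was 0.04. Calls were more frequent in both directions among the 4741 genes with a linear group mean over 300, of which 39.3% rose and 31% fell, and 6 of the 8 genes were in that class, 4 of which fell. The study's criteria (unadjusted p under 0.001, fold over 2 or under 0.5 and a mean over 300) were met by 1 of the 8 genes in the lower direction, Rbp4, where 3.1% of all genes met them, and by 0 in the higher direction, where 4.91% did. When each array was centred on its median the log2 fold change of the median gene moved from 0.04 to 0.18, the share of calls that were rises went from 51.3% to 62.8%, and 4 of the 8 genes fell.

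**Figure D1:**
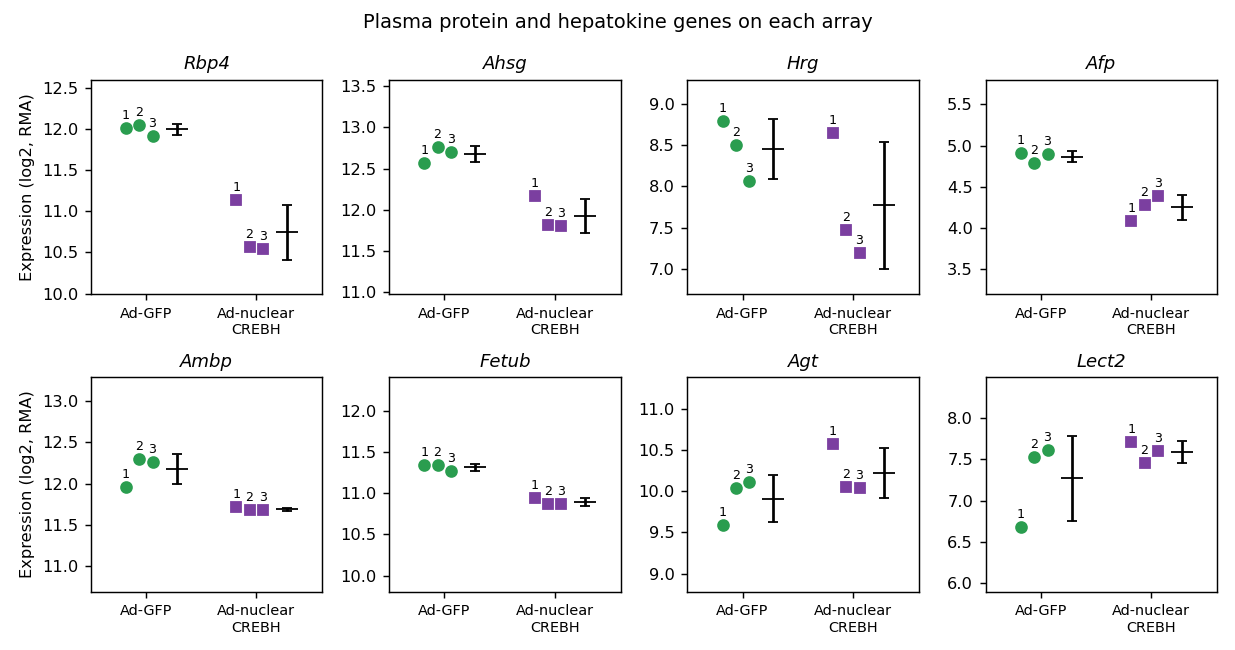
Expression (log2, RMA) of the 8 measured genes on each array, with green circles for Ad-GFP, purple squares for Ad-nuclear CREBH, the replicate number above each point and the group mean ± SD (n = 3) beside them. Each panel spans the same range of log2 units. Rbp4, Ahsg, Afp, Ambp and Fetub did not overlap between the groups, whereas Hrg, Agt and Lect2 did, each with an array numbered 1 far from its group.

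Rbp4 fell most. Its log2 values were 12.01, 12.05 and 11.92 with Ad-GFP and 11.13, 10.56 and 10.54 with Ad-nuclear CREBH. The groups were far apart, and array 1 was the highest of the lower group. The log2 fold change was -1.25 (SE 0.15, 95% interval -1.61 to -0.89, adjusted p = 0.00042), so that the linear mean was 42.1% of that with Ad-GFP. Of all genes 6.5% had a lower log2 fold change. Under the alternatives of statistic, scaling and arrays the value ranged from -1.44 to -1.11 and kept its call.

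Ttr encodes transthyretin, the plasma partner of RBP4. Its log2 values were 11.90, 11.99 and 11.86 with Ad-GFP and 12.29, 11.76 and 11.76 with Ad-nuclear CREBH, and the groups overlapped. The log2 fold change was 0.02 (SE 0.14, 95% interval -0.31 to 0.35, adjusted p = 0.929), and without both arrays numbered 1 it was -0.17 (adjusted p = 0.0269). Within an array, the log2 value of Rbp4 minus that of Ttr was 0.12, 0.06 and 0.06 with Ad-GFP and -1.16, -1.19 and -1.22 with Ad-nuclear CREBH. Only the change of this difference between groups can be read, since the features bind with different strength. It changed by -1.27, and the groups did not overlap (exact permutation test, two-sided p = 0.1, the smallest that 3 against 3 arrays allow, and 0.1 after adjustment over the 3 pairs compared). Since the mean of Ttr hardly changed, this difference largely restates the fall of Rbp4 (-1.25) and is no separate support for it.

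Of 15 other measured genes of retinol handling 4 rose, 5 fell and 6 did not pass, with a median log2 fold change of -0.07. Aldh1a1, which oxidizes retinal to retinoic acid, fell from a group mean of 11.24 to 6.80 (log2 fold change -4.43, SE 0.39, adjusted p = 7.7e-05). Stra6l, a receptor for RBP4, fell from 9.01 to 6.82 (-2.20, SE 0.36, adjusted p = 0.0018). The retinoic acid receptor Rarb (-1.84, SE 0.37, adjusted p = 0.00493) and Cyp26a1, which degrades retinoic acid (-1.29, SE 0.30, adjusted p = 0.011), fell too. Other genes of the list rose. Rdh10, a retinol dehydrogenase, rose from 9.18 to 11.39 (2.21, SE 0.19, adjusted p = 6.7e-05), and Bco1, which cleaves beta-carotene, rose by 1.49 (SE 0.37, adjusted p = 0.0131). Rxra, the partner of the retinoic acid receptors, rose by 0.89 (SE 0.16, adjusted p = 0.00274), and Retsat, which saturates retinol, by 0.85 (SE 0.23, adjusted p = 0.0192). The call of Retsat was lost without Ad-GFP replicate 2 (adjusted p = 0.0508), and its value was 0.49 without both arrays numbered 1. Rara had 7.38 and 7.16 and did not pass (adjusted p = 0.548).

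The genes whose values followed those of Rbp4 most closely over the 6 arrays were Cldn2, Fgl1 and Mpdz, with a root mean square difference of 0.067, 0.067 and 0.070 log2 units after each gene's mean was subtracted. Cldn2 encodes a claudin of tight junctions, Fgl1 a secreted liver protein, and Mpdz a scaffold protein of cell junctions. Their log2 fold changes were -1.16, -1.13 and -1.22. On each of them, as on Rbp4, array 1 was the highest of the Ad-nuclear CREBH arrays, at 4.44, 10.21 and 5.20. Since they were picked for closeness to Rbp4 on these same arrays, both likenesses follow from the choice.

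Ahsg encodes fetuin-A, which binds calcium phosphate in plasma and inhibits the insulin receptor. It had log2 values of 12.57, 12.76 and 12.71 with Ad-GFP and 12.17, 11.82 and 11.80 with Ad-nuclear CREBH, and the groups did not overlap. For Ahsg the log2 fold change was -0.75 (SE 0.11, 95% interval -1.0 to -0.49, adjusted p = 0.00104), a linear mean of 59.5% of that with Ad-GFP. It ranged from -0.93 to -0.61 under the alternatives and kept its call. Within an array, Ahsg minus Alb was -0.71, -0.49 and -0.62 with Ad-GFP and -1.10, -1.41 and -1.52 with Ad-nuclear CREBH, a change of -0.74 with no overlap (exact permutation test, two-sided p = 0.1). Alb lay near the top of the scale of these arrays and its saturation was not tested, so this difference adds nothing to the change of Ahsg itself.

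Fetub encodes fetuin-B, an inhibitor of the ovastacin and meprin proteases. With Ad-GFP its log2 values were 11.34, 11.34 and 11.26, the least spread of all 8 genes, and with Ad-nuclear CREBH they were 10.95, 10.87 and 10.86, with no overlap. Its log2 fold change was -0.42 (SE 0.08, 95% interval -0.60 to -0.25, adjusted p = 0.00291), a linear mean of 74.6% of that with Ad-GFP. With each array centred on its median it was -0.28, and the call was lost (adjusted p = 0.0569). The change in Ahsg minus Fetub within an array, from 1.23, 1.42 and 1.44 to 1.22, 0.95 and 0.93, was -0.33, and its groups were separated only by the gap between 1.23 and 1.22 (exact permutation test, two-sided p = 0.1).

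Hrg encodes histidine-rich glycoprotein, which binds heparin, plasminogen and thrombospondin. Its log2 values were 8.79, 8.51 and 8.07 with Ad-GFP and 8.65, 7.48 and 7.20 with Ad-nuclear CREBH. Array 1 of the Ad-nuclear CREBH group lay among the Ad-GFP arrays, and the others lay below all of them. Its log2 fold change was -0.68 (SE 0.37, 95% interval -1.53 to 0.16, adjusted p = 0.191). Without Ad-nuclear CREBH replicate 1 it was -1.12 (adjusted p = 0.00922), without both arrays numbered 1 it was -0.95 (adjusted p = 0.000715), and with array weights -0.84 (adjusted p = 0.0181). Without single other arrays it reached -0.40 and did not pass.

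Of 6 other cystatin superfamily genes 1 rose, 2 fell and 3 did not pass, with a median log2 fold change of -0.15. Kng1 and Kng2 encode kininogens, the precursors of bradykinin, and are close copies whose features may share signal. Kng1 fell from 11.07 to 10.66 (-0.41, SE 0.11, adjusted p = 0.016), and its call was lost with arrays centred (-0.27, adjusted p = 0.0964) and without any 1 of 3 arrays (adjusted p up to 0.07, without Ad-nuclear CREBH replicate 3). Kng2 fell from 10.80 to 10.17 (-0.63, SE 0.20, adjusted p = 0.036), with groups that overlapped. Its call was lost without Ad-GFP replicate 3 (-0.47, adjusted p = 0.119) and with 3 other single arrays left out, and its value was -0.94 without both arrays numbered 1. Cst3, the protease inhibitor cystatin C, rose by 0.48 (SE 0.10, adjusted p = 0.00713), and Cstb, which inhibits cathepsins inside cells, had a log2 fold change of -0.27 (adjusted p = 0.075).

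**Figure D2:**
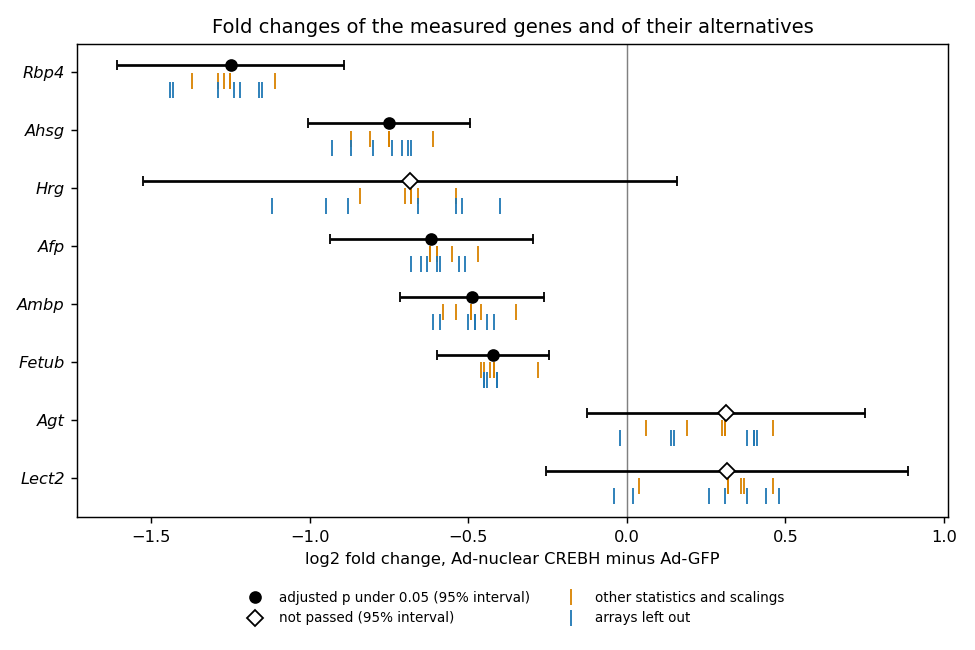
Log2 fold changes (Ad-nuclear CREBH minus Ad-GFP) of the 8 genes with 95% intervals, as filled circles where the adjusted p passed and open diamonds where it did not, and ticks for the same value with another statistic or scaling (orange) or with arrays left out (blue). The 5 filled genes lie below 0 with all their ticks, Hrg has the widest interval (-1.53 to 0.16), and ticks of Agt and Lect2 fall on both sides of 0.

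Ahsg, Fetub, Hrg, Kng2 and Kng1 lie side by side on mouse chromosome 16, and the order of genes was looked at after their values had been seen. With 4 protein-coding genes on each side the run held 11 genes, of which 9 were measured. Apart from Ahsg, Fetub and Hrg, 6 neighbours were measured, of which 4 fell and 1 rose, where 18.2% and 19.2% of all genes did. Kng1 and Kng2 are among those that fell, but their values had also been seen before, and their features may share signal. The count is thus a description and no support for a shared change of the run. The calls of Kng1, Kng2 and Dnajb11 were lost under alternatives. Beyond Ahsg, Dnajb11, a chaperone of the endoplasmic reticulum, fell by 0.79 on the log2 scale (SE 0.24, adjusted p = 0.0333). Its call was lost without any 1 of the Ad-GFP arrays (adjusted p up to 0.0761, without replicate 1). It was also lost with arrays centred (adjusted p = 0.0611) and with a replicate block (adjusted p = 0.0551). Its value without both arrays numbered 1 was -0.39. Tbccd1, which is needed for centrosome position, fell by 0.91 (SE 0.15, adjusted p = 0.00211). The lens gene Crygs had a log2 fold change of 0.03 (adjusted p = 0.865). On the other side Eif4a2, a translation initiation factor, rose by 0.65 (SE 0.16, adjusted p = 0.0119).

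**Figure D3:**
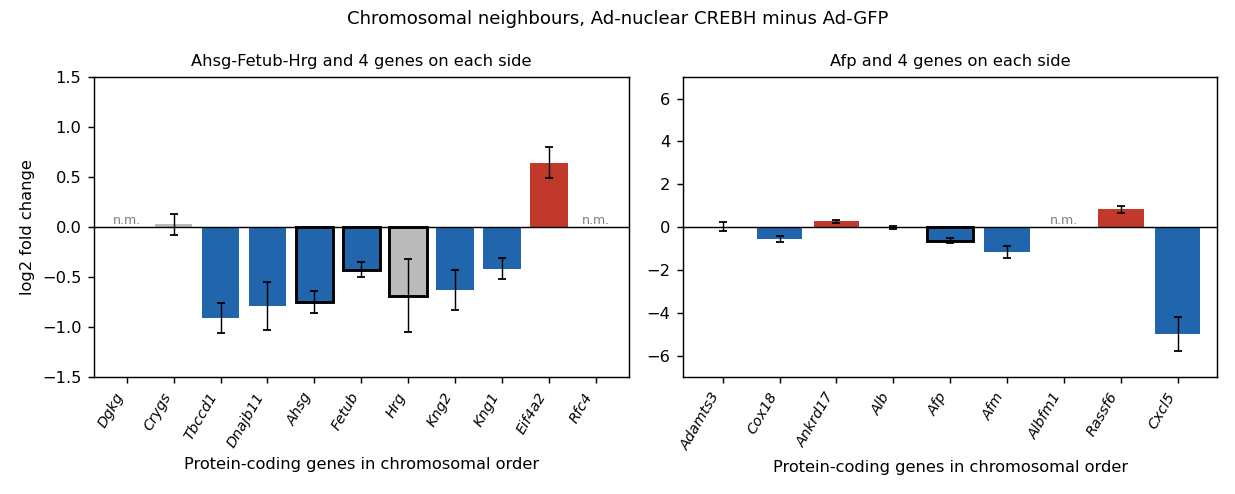
Log2 fold changes with SE of protein-coding genes in chromosomal order (spacing not to scale) around Ahsg, Fetub and Hrg on chromosome 16 and around Afp on chromosome 5, blue for genes that fell, red for genes that rose, grey for genes that did not pass, black outlines for genes of the set and n.m. for no feature of that single symbol. On chromosome 16 the bars from Tbccd1 to Kng1 point down, with Hrg not passing, and on chromosome 5 Alb (-0.01) stands beside Afp (-0.62), on a wider axis.

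Ambp encodes a precursor that is split into alpha-1-microglobulin, a lipocalin that binds heme, and bikunin, a protease inhibitor. Ambp had log2 values of 11.96, 12.30 and 12.26 with Ad-GFP and 11.71, 11.67 and 11.68 with Ad-nuclear CREBH. The groups did not overlap, and Ad-GFP array 1 was the nearest to the lower group. Ambp had a log2 fold change of -0.49 (SE 0.10, 95% interval -0.71 to -0.26, adjusted p = 0.0051), a linear mean of 71.3% of that with Ad-GFP. It kept its call under the alternatives, from -0.61 to -0.35.

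Bikunin is joined to heavy chains encoded by the Itih genes, and these did not move as one. Itih2 fell from 11.17 to 9.89 (-1.28, SE 0.21, adjusted p = 0.00165), and Itih1 rose from 9.59 to 10.16 (0.57, SE 0.13, adjusted p = 0.0107). Itih3 fell from 10.96 to 10.43 (-0.53, SE 0.13, adjusted p = 0.0144), a call lost when any of 4 single arrays was left out (adjusted p up to 0.0618, without Ad-nuclear CREBH replicate 3). Of 8 other lipocalins 1 rose, 3 fell and 4 did not pass, with a median log2 fold change of -0.17. C8g, a subunit of complement component C8, rose from 8.93 to 10.37 (1.44, SE 0.10, adjusted p = 3.2e-05). Apom, which carries sphingosine phosphate on lipoproteins, fell from 6.79 to 5.13 (-1.66, SE 0.39, adjusted p = 0.0102), and Lcn2, an iron-siderophore binder of the acute phase, from 13.35 to 12.84 (-0.51, SE 0.08, adjusted p = 0.00159). With Ad-GFP Lcn2 lay near the top of the scale of these arrays, and its saturation was not tested. Orm2 fell by 0.66 (SE 0.17, adjusted p = 0.0164), and its call was lost with arrays centred (-0.52, adjusted p = 0.0696) and without Ad-nuclear CREBH replicate 2 (adjusted p = 0.0678) or 3 (adjusted p = 0.0661). Orm1 had 12.21 and 12.11 (adjusted p = 0.524). The orosomucoid genes are close copies, so their features may share signal.

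Afp encodes alpha-fetoprotein, the main plasma protein of the fetal liver, which is silent in most adult hepatocytes. Its log2 values were 4.91, 4.79 and 4.90 with Ad-GFP and 4.09, 4.28 and 4.38 with Ad-nuclear CREBH. All lay below the median gene of their array, which was at 5.05 to 5.30, and the groups did not overlap. The log2 fold change was -0.62 (SE 0.14, 95% interval -0.94 to -0.30, adjusted p = 0.00893). RMA gives no flag for background, so a value at this level may hold little signal of the gene, and a fold change there is understated where background adds to both groups. It kept its call under the alternatives in which it was tested, from -0.68 to -0.47, and it was not among the genes with a mean over 300.

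Alb, the neighbour of Afp on chromosome 5, had 13.28 and 13.27 (-0.01, SE 0.05, adjusted p = 0.865). The highest value of any gene was 13.46 to 13.56 on each array, so Alb was near the top of the scale, and its saturation was not tested. Afm, which encodes afamin, a vitamin E carrier of the same family, fell from 7.93 to 6.79 (-1.14, SE 0.29, adjusted p = 0.0152), a call lost without Ad-GFP replicate 2 (adjusted p = 0.0506) and without Ad-nuclear CREBH replicate 2 (0.0633) or 3 (0.0604). Among the 4 genes on either side of Afp, the chemokine gene Cxcl5 fell by 4.96 (SE 0.80, adjusted p = 0.0016) to a low level of 3.11. Rassf6 rose by 0.84 (SE 0.15, adjusted p = 0.00297). Cox18 fell too (-0.55, adjusted p = 0.0149) and Ankrd17 rose (0.27, adjusted p = 0.0406), and both of these calls were lost under alternatives.

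Of 8 measured genes of fetal liver and progenitor cells other than Afp, 2 rose, 2 fell and 4 did not pass, with a median log2 fold change of 0.01. Cd24a, a surface protein of progenitor cells, rose from 8.97 to 11.88 (2.91, SE 0.19, adjusted p = 2.7e-05), and Epcam, an epithelial adhesion protein, from 4.76 to 6.50 (1.74, SE 0.19, adjusted p = 0.00025). Prom1 fell by 2.03 (SE 0.25, adjusted p = 0.00043), or by 0.96 where the mean of all its features was taken, and the keratin gene Krt19 fell by 1.06 (SE 0.20, adjusted p = 0.00409). Sox9 had 8.07 and 8.65 (0.58, adjusted p = 0.278) and passed without both arrays numbered 1 (1.27) and with array weights (1.11, adjusted p = 0.00182). Prom1 and Krt19 fell to levels of dim genes, 3.27 and 3.43. The fetal genes Igf2, Gpc3 and Dlk1 were between 2.71 and 4.30 and did not pass. Of the factors known to repress Afp after birth, Zbtb20 had 9.52 and 9.98 (0.45, adjusted p = 0.134) and passed with arrays centred (0.60, adjusted p = 0.0232) and without both arrays numbered 1 (0.34, adjusted p = 0.000941). Zhx2 had 7.36 and 7.58 (adjusted p = 0.536), and Zfhx3 had 7.37 in both groups (adjusted p = 0.991).

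Agt encodes angiotensinogen, whose log2 values were 9.59, 10.04 and 10.11 with Ad-GFP and 10.58, 10.05 and 10.04 with Ad-nuclear CREBH. The arrays numbered 2 and 3 of both groups lay between 10.04 and 10.11, and the arrays numbered 1 were the lowest and the highest of all. The log2 fold change was 0.31 (SE 0.19, 95% interval -0.13 to 0.75, adjusted p = 0.249), and without both arrays numbered 1 it was -0.02 (adjusted p = 0.77).

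Of 11 other measured genes of the renin-angiotensin system 3 rose, 0 fell and 8 did not pass, with a median log2 fold change of 0.17. Agtr1a, the main angiotensin II receptor, had 6.38, 7.07 and 7.15 with Ad-GFP and 9.31, 10.22 and 10.37 with Ad-nuclear CREBH (3.10, SE 0.31, adjusted p = 0.00015), with no overlap. Agtrap, which binds this receptor and promotes its uptake, rose from 5.35 to 7.08 (1.73, SE 0.15, adjusted p = 7e-05), and Prcp, a carboxypeptidase that inactivates angiotensin II, from 8.42 to 9.19 (0.77, SE 0.11, adjusted p = 0.00096). Atp6ap2, the renin receptor, had 9.15 and 9.17 (adjusted p = 0.92), and the aminopeptidase gene Enpep had 8.68 and 8.52 (adjusted p = 0.748). With arrays centred 5 genes of this list rose, and those added, Agtr2 (2.87 and 3.16) and Mme (3.67 and 4.04), were dim. Without both arrays numbered 1 there were 2 that fell, Anpep (-0.84, adjusted p = 2.92e-05) and Enpep (-0.40, adjusted p = 0.00153).

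Lect2 encodes a hepatokine first described as a factor that attracts leukocytes. Its log2 values were 6.68, 7.53 and 7.61 with Ad-GFP and 7.71, 7.45 and 7.61 with Ad-nuclear CREBH. All arrays but Ad-GFP array 1 lay between 7.45 and 7.71. The log2 fold change was 0.32 (SE 0.25, 95% interval -0.26 to 0.89, adjusted p = 0.375), and without both arrays numbered 1 it was -0.04 (adjusted p = 0.773). Met, a hepatocyte receptor to which LECT2 binds, fell from 9.95 to 9.29 (-0.67, SE 0.12, adjusted p = 0.00354). Tie1 and Cd209a, which encode receptors of LECT2 on endothelial and immune cells, were at 4.21 and 4.33 and at 2.85 and 2.92 and did not pass.

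Among all 17 partners, receptors and protease targets of the plasma proteins 2 rose, 7 fell and 8 did not pass, with a median log2 fold change of -0.51. Thbs1, a thrombospondin that HRG binds, rose from 8.03 to 10.11 (2.08, SE 0.16, adjusted p = 4.4e-05). Tgfb1, a growth factor, fell from 8.85 to 7.03 (-1.82, SE 0.30, adjusted p = 0.00201), and Asgr1, a subunit of the receptor that clears desialylated glycoproteins, from 8.28 to 6.76 (-1.51, SE 0.36, adjusted p = 0.0111). Tlr4, for which fetuin-A is an adaptor, fell by 1.47 (SE 0.23, adjusted p = 0.00148) to a dim level of 3.19, and the Wnt receptor gene Fzd4 fell by 1.32 (SE 0.17, adjusted p = 0.00051). The insulin receptor gene Insr had 8.81 and 8.30 (-0.51, adjusted p = 0.153) and passed without both arrays numbered 1 (-0.60, adjusted p = 0.000173), as did Plg, the plasminogen gene (-1.64, adjusted p = 1.01e-06, against -1.04 and 0.061), and Asgr2 (-0.46, adjusted p = 0.00686, against -0.11). Insr (adjusted p = 0.00767) and Plg (adjusted p = 0.000615) also passed with array weights, whereas Asgr2 did not. With arrays centred none of these genes passed. The protease genes Mep1a, Mep1b and Astl, targets of fetuin-B, were between 2.64 and 2.95 in both groups and did not pass.

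**Figure D4:**
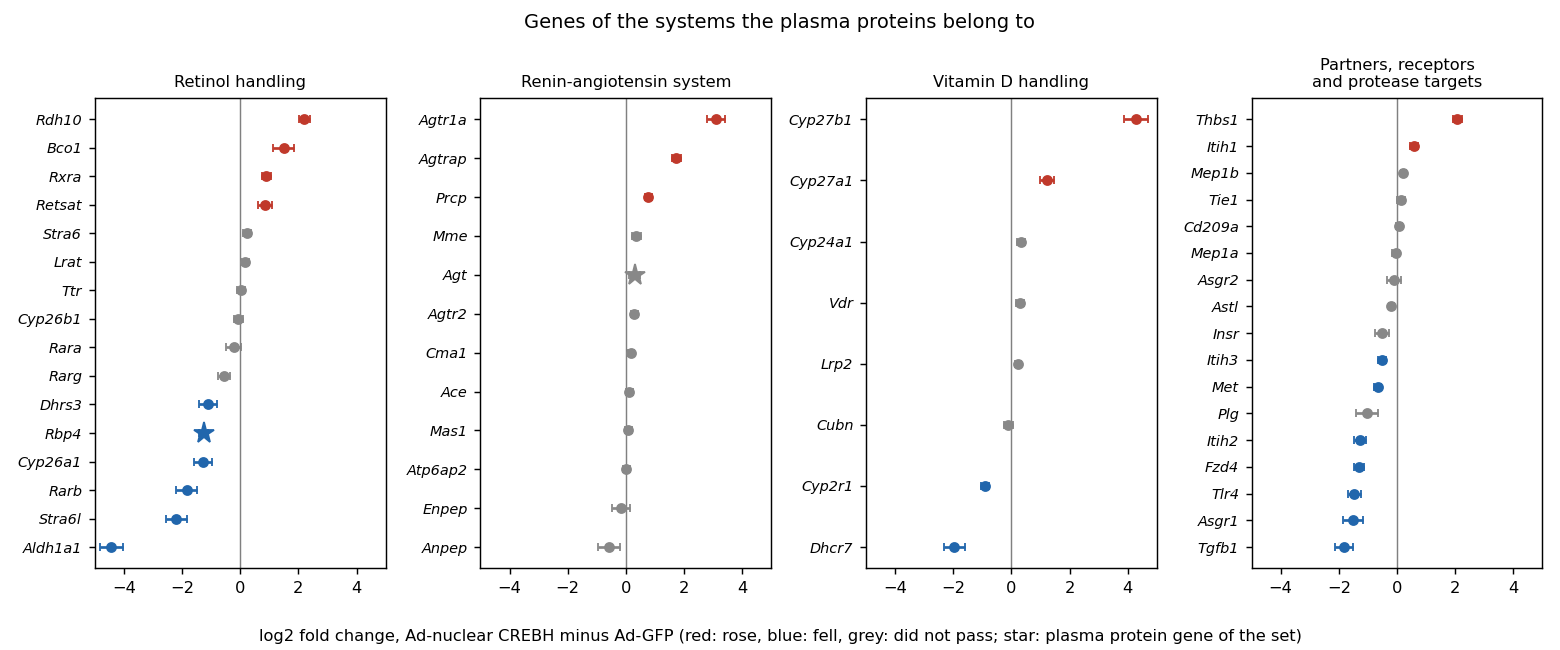
Log2 fold changes with SE of the measured genes of retinol handling, the renin-angiotensin system and vitamin D handling and of partners, receptors and protease targets (Ad-nuclear CREBH minus Ad-GFP), red for genes that rose, blue for genes that fell, grey for genes that did not pass, and stars for Rbp4 and Agt. Values reach from -4.43 (Aldh1a1) to 4.29 (Cyp27b1), and Ttr lies at 0.02 beside Rbp4 at -1.25.

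For vitamin D handling, the system of the Gc product, 2 of 8 measured genes rose, 2 fell and 4 did not pass, with a median log2 fold change of 0.26. Cyp27b1, which makes the active hormone and is mainly known from kidney, had 5.01, 3.66 and 5.51 with Ad-GFP and 8.80, 9.08 and 9.17 with Ad-nuclear CREBH (4.29, SE 0.42, adjusted p = 0.00013). The Ad-nuclear CREBH values lay close together and far above the others. Cyp27a1, a mitochondrial sterol hydroxylase, rose from 8.97 to 10.21 (1.23, SE 0.24, adjusted p = 0.00414), and its value was 0.81 without both arrays numbered 1. Cyp2r1, the main hydroxylase of vitamin D in liver, fell from 7.61 to 6.69 (-0.92, SE 0.15, adjusted p = 0.00155), and Dhcr7, which turns the precursor of vitamin D into cholesterol, from 9.20 to 7.24 (-1.96, SE 0.36, adjusted p = 0.00328). With arrays centred 5 genes of this list rose, which included the dim receptor gene Vdr (0.44, adjusted p = 0.0239).

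Of 27 other measured genes for abundant plasma proteins 2 rose, 10 fell and 15 did not pass, with a median log2 fold change of -0.28. Some genes (Alb, Ttr, Kng1 and Plg) also stand in lists above. The largest falls were in Fgb (11.72 to 9.43, -2.29, SE 0.25, adjusted p = 0.0002) and Fga (-1.72, SE 0.25, adjusted p = 0.00097), chains of fibrinogen, in Cp (-1.50, SE 0.17, adjusted p = 0.00027), the copper protein ceruloplasmin, and in Azgp1 (-1.43, SE 0.17, adjusted p = 0.00039). F10, a clotting factor gene, rose by 1.01 (SE 0.11, adjusted p = 0.0002), and Apoa1, the main protein of high-density lipoprotein, by 0.74 (SE 0.06, adjusted p = 5.6e-05). The number that fell was 6 with arrays centred and 18 without both arrays numbered 1. Of 17 other measured hepatokine genes 6 rose, 7 fell and 4 did not pass, with a median of 0.09. Fgf21, which acts on metabolism through brain and fat, rose from 5.42 to 8.70 (3.28, SE 0.16, adjusted p = 1.8e-05), Igfbp2 by 2.05 (SE 0.20, adjusted p = 0.00012) and Inhbe by 1.88 (SE 0.29, adjusted p = 0.00138). Igfbp1 fell from 10.42 to 7.27 (-3.16, SE 0.18, adjusted p = 2e-05), and so did the iron hormone gene Hamp (-1.96, SE 0.27, adjusted p = 0.00069) and Igf1 (-1.37, SE 0.25, adjusted p = 0.00337).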

How the data were processed

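Expression was measured in 6 dishes of primary hepatocytes, 3 per group, each on 1 Affymetrix Mouse Gene 1.1 ST array. The authors deposited log2 values made with RMA, which corrects background, normalizes between arrays and summarizes probes. RMA's name comes from the submitters' processing notes, and its version and array definition are not given in the sources used here. Values ran from 1.17 to 13.66 and were used as deposited. Of 35556 features 21218 carried 1 gene symbol in the platform annotation, 1881 several and 12457 none. Only the first kind was used, with the feature of highest mean for the 1386 genes with several.

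Models (Ad-nuclear CREBH minus Ad-GFP, no covariate) were fitted to all 18820 genes in R 4.3.3 with limma 3.58.1 (lmFit, eBayes with an intensity trend, 4 residual and 3.97 prior degrees of freedom), with Benjamini-Hochberg adjustment. This stands in for the intensity-based statistic of the methods, which was an alternative. Where the mean had to pass 300 is not stated, so at least 1 group was required. Models were tested on simulated data. Alternatives were other variance priors, weighted arrays, a replicate block, scaling between arrays, features per gene, a minimum level and leaving out each array. The fit without both arrays numbered 1 was added after seeing that they stand apart.

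The 10 genes and the lists were chosen with earlier results of these data known, so list counts are descriptions. Named are each gene of the set, Creb3l3, in each list up to 4 largest rises and 4 largest falls that passed and up to 2 of the highest genes that did not, the 2 highest markers and their largest changes, and the 3 genes most like Rbp4. Chromosomal neighbours, fetal genes, AFP repressors, receptors and protease targets named for their role, and genes whose call an alternative changed were added after their values were seen. Promoters and gene order came from RefSeq (GRCm38.p6). The build of the array annotation was not needed, and the coordinates given are those of the RefSeq promoter stretches alone. Figures were drawn with matplotlib 3.10.9.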

Additional observations from a re-analysis of the deposited data

How the results depend on the processing

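Each of the 8 genes was recomputed under up to 17 alternatives, 134 values in all, of which 127 kept their direction and their side of the threshold. The number of genes of the set that fell was 4 to 6 and the number that rose was 0. The set had 6 falls with array weights, with a replicate block, without Ad-nuclear CREBH replicate 1 and without both arrays numbered 1. Over all genes 4595, 3705, 3174 and 4765 fell in these fits, against 3427 in the main fit. Falls over all genes were more frequent too, except without Ad-nuclear CREBH replicate 1. With arrays centred the set had 4 falls, and 2852 of all genes fell. It also had 4 among genes with a mean over 300, where Afp was not tested. Fetub lost its call with each array centred on its median (-0.28, adjusted p = 0.0569), the scaling that also moved the median gene. Without both arrays numbered 1, Lect2 was at -0.04 and Agt at -0.02, both below 0, and Hrg passed at -0.95. Hrg also passed with array weights (-0.84), and with 1 array left out its log2 fold change lay between -1.12 and -0.40. With a replicate block Hrg was at -0.68 and passed (adjusted p = 0.0345). The numbers were not taken as pairs in the main fit, since no source says that same-numbered dishes belong together. Deviations of same-numbered arrays from their group means correlated at 0.18, 0.07 and 0.14. Each array correlated best with its own number except number 2. These values do not settle whether the numbers are pairs. With the block 3715 genes rose and 3705 fell, against 3615 and 3427 without it. Among genes with a mean over 300 in at least 1 group, 1861 rose and 1468 fell, since fewer genes were tested. Of 374 counts over the gene lists under alternatives 343 stayed within 1.5 times. The cause of the changed calls was not tested. The spread between dishes leaves the 95% intervals of Agt, Lect2 and Hrg on both sides of 0, and dim genes such as Afp sit close to background.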

Other observations

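Of 12 measured hepatocyte transcription factors and AFP repressors 3 rose, 3 fell and 6 did not pass, with a median log2 fold change of 0.11, against 0.04 for all genes. The pioneer factor gene Foxa1 rose from 8.25 to 9.89 (1.65, SE 0.14, adjusted p = 7.2e-05), Cebpb from 7.73 to 9.17 (1.44, SE 0.23, adjusted p = 0.00166) and Foxa3 from 7.28 to 8.69 (1.41, SE 0.24, adjusted p = 0.00194). Prox1, a factor of liver development, fell from 8.12 to 5.73 (-2.38, SE 0.24, adjusted p = 0.00014). The nuclear receptor gene Nr5a2 fell by 1.40 (SE 0.22, adjusted p = 0.00151), and Onecut1 by 1.04 (SE 0.25, adjusted p = 0.0117). Hnf4a had 8.94 and 8.57 (adjusted p = 0.129) and passed without both arrays numbered 1 (-0.44, adjusted p = 0.000619), as did Foxa2 (-1.04, adjusted p = 1.94e-05). In the other direction, Cebpa had 7.55 and 7.87 (0.31, adjusted p = 0.169) and passed as a rise in that fit (0.30, adjusted p = 0.0131). Cebpa also passed with arrays centred (0.45, adjusted p = 0.0269). With array weights Hnf4a (adjusted p = 0.00772), Foxa2 (adjusted p = 0.000406) and Cebpa (adjusted p = 0.0475) passed too.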
